A study of Mus musculus with 6 samples.

Results

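The ATF4 response and tRNA synthetase genes are 36 genes that cells switch on, largely through the transcription factor ATF4, when amino acids run short or protein synthesis is slowed. They were chosen by gene symbol, with the 1 added to the symbol of a synthetase (Mars as Mars1) taken as the same gene. A total of 35 had a named probe set on the array, out of 18193 named genes in all, and they were read by 78 probe sets. Pycr1, an enzyme of proline synthesis, had none and was not analysed here. Each gene is given by its probe set with the highest mean intensity over the 6 arrays. The genes were proposed with the comparison of the 2 groups already known, so their differences are a description, and nothing is read from a test of them.

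ATF4 is a basic leucine zipper protein whose mRNA is translated when the initiation factor eIF2 is phosphorylated by a stress-sensing kinase such as GCN2, which senses uncharged tRNA, or PERK, which senses unfolded protein in the endoplasmic reticulum. As a dimer with C/EBP proteins it binds composite elements in target genes. These encode enzymes that make asparagine, serine, glycine and proline, amino acid transporters, and many of the cytosolic aminoacyl-tRNA synthetases, which attach each amino acid to its tRNA. ATF4 also induces the pro-apoptotic factor CHOP (Ddit3) and its own antagonist Trib3. In dividing thymocytes and T cell lymphomas the same enzymes supply amino acids and one-carbon units for growth.

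Expression was measured in 6 primary thymic lymphomas, 1 array per tumour and 1 tumour per mouse. All mice carried homozygous IkL alleles (IkL/L), which lower the activity of the lymphoid transcription factor Ikaros, and a CD4-Cre transgene, active in developing thymocytes. The 3 Notch1+/+ mice, with wild-type Notch1, were 18 to 20 weeks old. The 3 Notch1f/f mice, in which Cre can remove the promoter and exon 1 of Notch1, were 8 to 10 weeks old. Age and genotype therefore cannot be told apart. The labels call the cells transformed T cells; they were freed by mechanical disruption of the tumours, and no sorting step is described. In such bulk RNA, fewer cells of a type and less RNA per cell cannot be told apart.

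On every array the mean of the middle 96% of intensities was 100, and 23.1% to 25% of probe sets exceeded an intensity of 100. Of the T cell markers listed, 11 of 12 were measured, none of them stayed below 20 on all arrays, and their summed intensity was 21490 to 24085 in the Notch1+/+ and 24175 to 30635 in the Notch1f/f tumours. The 3′ to 5′ intensity ratio of the beta-actin controls, a sign of RNA integrity, was 1.36 to 2.23 and 1.35 to 1.64, highest in Notch1+/+ tumour 1. The 18S RNA control was 64.8 to 125 and 250 to 319. The part of these values in the differences below was not tested.

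Most of the ATF4 response was lower in the Notch1f/f tumours, among them asparagine synthetase (Asns), the translation inhibitor 4E-BP1 (Eif4ebp1), the mitochondrial folate enzyme Mthfd2, the serine enzyme Psat1 and the synthetase of cysteine (Cars), each with a log2 difference of -1.04 or lower. In Atf4 itself and in the regulators Atf5, Atf3, Ddit3, Cebpb, Trib3 and Nupr1 the groups overlapped. Of the 35 genes, 33 had a log2 difference below 0 (Notch1f/f minus Notch1+/+, of log2(intensity + 16), a scale that understates differences of dim genes). The median was -0.58, beside -0.04 over the 27022 probe sets tested, of which 55% lay below 0. In 18 of the 35 genes all 3 Notch1f/f values lay below all 3 Notch1+/+ values, and in none did they lie above. The same held for 10.4% of tested probe sets in the lower direction and 8.13% in the higher direction. Since this comparison was known when the genes were proposed, nothing is read from these shares. Without Notch1+/+ tumour 2, the tumour with the highest values, the median was -0.38.

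**Figure D1:**
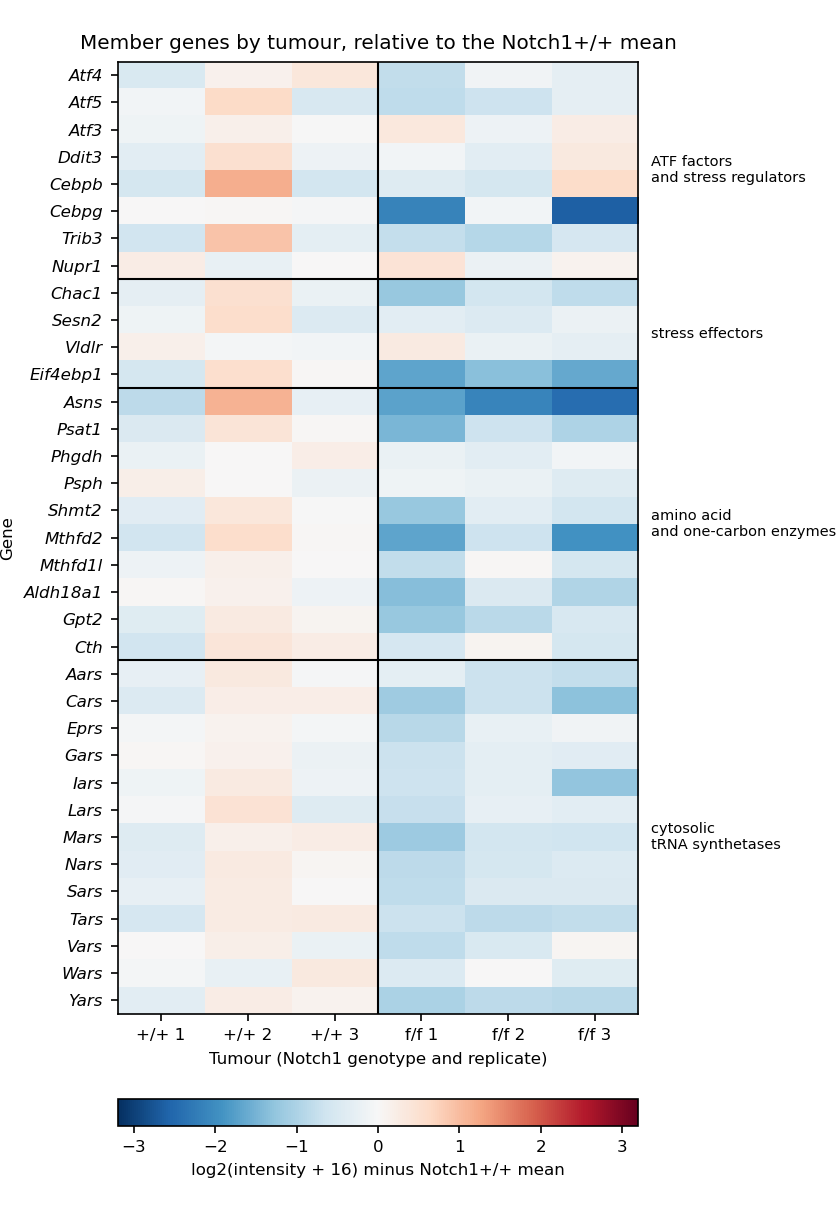
Rows are the 35 measured genes in 4 groups by role and columns the 6 tumours; colour gives log2(intensity + 16) minus the mean of the 3 Notch1+/+ tumours. Blue fills most of the Notch1f/f columns, deepest for Asns, Cebpg, Mthfd2 and Eif4ebp1, while Notch1+/+ tumour 2 has the highest value of its group in 27 of 35 genes.

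The promoters of these genes were searched for the composite element through which ATF4 and C/EBP proteins act. The motif TGATGNAAN was looked for on both strands in RefSeq windows of 300 bases, from 250 before to 50 after a transcription start (build GRCm38.p6). A window was at hand for 29 of the 36 genes, and 12 of the 29 (41.4%) held a match, against 4.50% of 27025 genes and 3.95% of 32851 windows. The stricter form TGATGCAAT, which is contained in the first, was found in 4 of the 29 and in 0.222% of all genes. The E-box CACGTG was found in 5 (17.2%, against 8.09%) and the cAMP response element TGACGTCA in none (2.03% of all genes). A match is a description of the letters and does not show binding. The genes were listed as an ATF4 response, for which this composite element is known, so nothing is read from the shares.

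Of the 12 genes with a match, 11 are shown by the matching site, in capitals, with 10 bases on each side, written 5′ to 3′ in the orientation of the motif, because they let the shared core be compared. The strand given is the one printed.
Asns, chr6:7693214-7693242, minus strand: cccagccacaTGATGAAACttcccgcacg
Chac1, chr2:119351038-119351066, minus strand: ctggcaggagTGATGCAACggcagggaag
Trib3, chr2:152344029-152344057, plus strand: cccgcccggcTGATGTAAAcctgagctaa
Atf3, chr1:191183426-191183454, plus strand: gcggacttggTGATGCAAGtgcgagaagg
Nupr1, chr7:126625563-126625591, plus strand: aagccctgtcTGATGCAATctggcccttt
Vldlr, chr19:27216809-27216837, minus strand: ctaggagcgcTGATGCAACtattgctgct
Pycr1, chr11:120643833-120643861, minus strand: gccctgtgtaTGATGCAATgcacaaggct
Gars, chr6:55037960-55037988, minus strand: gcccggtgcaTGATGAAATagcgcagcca
Iars, chr13:49682126-49682154, minus strand: cgtctggaggTGATGCAATactgacagtg
Tars, chr15:11399656-11399684, plus strand: gctaaccagcTGATGCAACgggactcctg
Yars, chr4:129189896-129189924, plus strand: cgagctcagcTGATGCAACccgacgggac

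Counted from the transcription start, the motif began 23 bases before it in Asns, 31 in Gars, 16 in Tars and 194 in Chac1. It lay after the start in Trib3, Iars and Yars, at base 14, 7 and 4. The 200 bases before the start are printed for Asns and Chac1, which had the most negative log2 differences among measured genes with a match before the start (Chac1 is dim, and with a pseudocount of 64 Tars, at -0.71, came before it), with the motif in capitals as it reads on the strand of the gene.
Asns, chr6:7693210-7693409, minus strand: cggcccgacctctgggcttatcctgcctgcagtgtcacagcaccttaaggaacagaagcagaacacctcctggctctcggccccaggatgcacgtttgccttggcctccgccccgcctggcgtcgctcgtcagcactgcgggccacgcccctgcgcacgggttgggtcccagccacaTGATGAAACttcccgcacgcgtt
Chac1, chr2:119351042-119351241, plus strand: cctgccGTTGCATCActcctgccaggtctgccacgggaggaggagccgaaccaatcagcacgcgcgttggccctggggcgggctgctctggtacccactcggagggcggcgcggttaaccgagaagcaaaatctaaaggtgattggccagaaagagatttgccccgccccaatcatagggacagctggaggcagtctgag

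Among measured genes, the 11 with a match had log2 differences from -2.08 to 0.13 (median -0.73), and 9 of them lay below 0. Nupr1 and Atf3, which lay above 0, were dim, and Nupr1 and Vldlr did not pass the filter on low values. Genes without a window, among them Eif4ebp1 and Cars, are in neither set. The 17 with a window and no match ranged from -1.61 to -0.04 (median -0.58), and all 17 lay below 0. The ranges of the genes with and without a match overlapped over most of their width. Genes without a match in the window, such as Mthfd2, Psat1 and Cebpg, were thus among those with the larger differences.

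Of the 8 transcription factors and regulators, 6 lay below 0 and 1 was lower without overlap, beside 55% and 10.4% of tested probe sets. The median log2 difference of the 8 was -0.27. Averaged over the 8, log2(intensity + 16) was 6.32, 6.98 and 6.41 in the Notch1+/+ and 6.04, 6.19 and 6.25 in the Notch1f/f tumours. Atf4 itself had intensities of 526, 822 and 956 in Notch1+/+ tumours 1, 2 and 3 and of 428, 684 and 604 in Notch1f/f tumours 1, 2 and 3. The groups overlapped, at 768 ± 220 (SD, n = 3) against 572 ± 131, a log2 difference of -0.40 ± 0.27 (SE from limma). Leaving out a tumour moved it to -0.64 (Notch1+/+ tumour 1), -0.22 (Notch1+/+ tumour 3) or -0.21 (Notch1f/f tumour 1), and the mean of its probe sets gave -0.25. ATF4 is controlled chiefly at translation, which an mRNA array does not read. Atf5, a related factor that is also induced through eIF2, had 128, 220 and 91.5 against 71.5, 80.7 and 109. Its groups overlapped, and its difference of -0.60 ± 0.32 was -0.29 without Notch1+/+ tumour 2.

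Cebpg encodes C/EBP gamma, a dimer partner of ATF4 on target genes. It was nearly constant in the Notch1+/+ tumours, at 261, 265 and 253.5, and split the Notch1f/f tumours, at 46.8, 243.5 and 29.4. Notch1f/f tumour 2 thus lay just under the Notch1+/+ tumours, while tumours 1 and 3 were far below. The difference was -1.61 ± 0.55, and -0.71 as the mean of its 3 probe sets, which differed in sign. The brighter of the other probe sets gave the same split, at 30.8, 35.7 and 31.9 against 3.3, 45.1 and 11.3. The dimmest gave 18.5, 14.8 and 13.4 against 25.4, 18.5 and 10.9.

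Ddit3, the pro-apoptotic factor CHOP, had 63.7, 129 and 74.6 in the Notch1+/+ and 80.3, 64.6 and 109 in the Notch1f/f tumours, so the groups lay across each other (log2 difference -0.04 ± 0.30). Its sign changed under 5 of the 14 alternatives, and its dimmer probe set gave 0.38 ± 0.25. The gene of Mars, which overlaps the end of Ddit3 in RefSeq, is described with the synthetases. Cebpb, a stress- and cytokine-induced C/EBP factor, had 44.2, 185 and 43.5 against 51.3, 44.2 and 118.5. One tumour of each group stood out there, Notch1+/+ tumour 2 and Notch1f/f tumour 3. Its difference of -0.13 ± 0.50 changed sign under 3 alternatives and was 0.45 at the highest. Atf3, a repressor induced by ATF4, was dim throughout, at 9.8, 15.5 and 12.1 against 20.1, 9.2 and 17.2 (0.13 ± 0.20).

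Trib3, the pseudokinase that restrains ATF4 and AKT, was dim except in 1 tumour. It had 10.2, 59.4 and 15.8 in the Notch1+/+ and 7.6, 5.1 and 11.4 in the Notch1f/f tumours, and its other probe set had 7.3, 68.4 and 10.2 against 1.7, 3.7 and 1.9. Notch1+/+ tumour 2 stood apart on both probe sets. The difference of -0.73 ± 0.36 was -0.27 without that tumour. It was -1.38 if 1, and -0.32 if 64, was added to the intensities rather than 16. Nupr1, a small chromatin-associated stress protein, stayed at or below 10.7 on all arrays and did not pass the filter on low values.

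Among the stress effectors, Eif4ebp1 and Chac1 had groups without overlap and Sesn2 did not. Eif4ebp1, which encodes a binding protein that blocks the cap-binding factor eIF4E, had 257, 573 and 398 in the Notch1+/+ and 111, 144 and 115 in the Notch1f/f tumours. The Notch1f/f tumours were close to each other and the lowest Notch1+/+ tumour was still well above them. Its difference was -1.55 ± 0.30, or 2.93-fold lower. The next probe set gave -1.08 ± 0.32, the dimmest -0.22 ± 0.24, and the mean of all 3 was -0.95.

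Chac1, which degrades glutathione and is among the most ATF4-dependent transcripts, had 25.2, 55.7 and 27.9 against 6.0, 17.6 and 13.0. All Notch1f/f values lay below all Notch1+/+ values, but all were low. The difference of -0.87 ± 0.28 therefore depended on the pseudocount, at -1.52 and -0.39 with 1 and 64. Sesn2, a leucine sensor that restrains mTORC1, had 42.2, 78.8 and 31.7 against 34.6, 31.1 and 39.8 (-0.33 ± 0.29), with -0.05 without Notch1+/+ tumour 2, -0.54 without Notch1+/+ tumour 3 and -0.19 with a pseudocount of 64. The 6 probe sets of Vldlr, a lipoprotein receptor, reached at most 11.6, and the gene did not pass the filter.

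**Figure D2:**
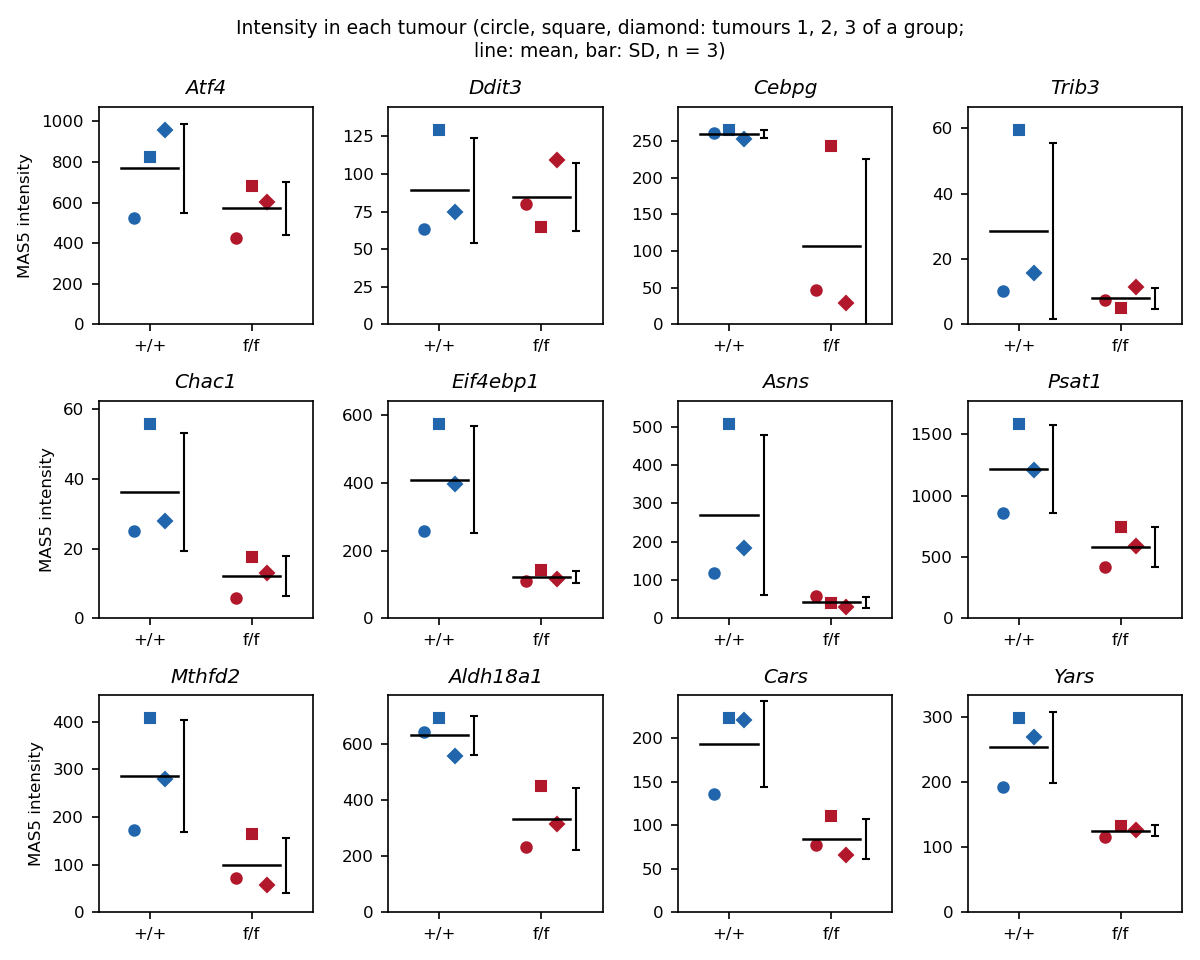
Each panel plots the MAS5 intensity of a gene (linear axis from 0) in the 3 Notch1+/+ (blue) and 3 Notch1f/f (red) tumours, with the group mean as a line and the SD as a bar, cut at 0 where it is wider than the mean. Asns, Eif4ebp1 and Yars have Notch1f/f values in a narrow band under all Notch1+/+ values, Cebpg splits the Notch1f/f tumours, and Ddit3 overlaps.

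Enzymes that make amino acids and one-carbon units held the largest single difference, that of Asns, and the lowest median of the 4 member groups. All 10 measured lay below 0 and 5 were lower without overlap, beside 55% and 10.4% of tested probe sets, and the median was -0.78. Asns, which makes asparagine from aspartate and glutamine and is a classical ATF4 target, had 119, 506 and 184 in the Notch1+/+ and 57.9, 39.8 and 28.8 in the Notch1f/f tumours. Every Notch1f/f value was less than the lowest Notch1+/+ value, and the Notch1+/+ tumours themselves spanned a wide range up to tumour 2. The difference was -2.08 ± 0.46, or 4.24-fold lower, and -1.53 without Notch1+/+ tumour 2. Its other probe set had 91.3, 454 and 137 against 40, 23.2 and 19.9 (-2.20 ± 0.49).

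The 3 enzymes of serine synthesis from glycolysis were not alike. Psat1, the transaminase at the middle step, had 859, 1581 and 1212 against 415, 741 and 588 (-1.04 ± 0.28), without overlap, and its other probe set gave -0.87 ± 0.20. Phgdh, the dehydrogenase at the entry step, had 1893, 2242 and 2545 against 1903, 1740 and 2090 (-0.21 ± 0.17), and Psph, the phosphatase at the last step, 439.6, 387 and 335.5 against 351, 328 and 287 (-0.25 ± 0.20). The groups of the latter pair overlapped, so by these probe sets Psat1 alone of the 3 separated them. Another Phgdh probe set of like brightness had 1991, 2252 and 2422 against 1918, 1647 and 1986, without overlap (-0.26 ± 0.16). Without Notch1+/+ tumour 1 the difference of Phgdh was -0.32 and that of Psph -0.16, and without Notch1+/+ tumour 3 that of Phgdh was -0.11.

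In the mitochondrial folate pathway, which turns serine into formate, Mthfd2 had 173, 407 and 279.9 against 72.4, 165 and 58.4. All Notch1f/f values were below the lowest Notch1+/+ value, though Notch1f/f tumour 2 came close to it (-1.44 ± 0.40, and -1.64 ± 0.42 on the other probe set). Shmt2, which splits serine into glycine and a one-carbon unit, had 926, 1543 and 1174 against 505, 943 and 788, with an overlap only between Notch1f/f tumour 2 and Notch1+/+ tumour 1. Its difference of -0.71 ± 0.27 was -0.46 without Notch1f/f tumour 1 and -0.41 as the mean of 4 probe sets, the dimmest of which had the opposite sign (0.36 ± 0.34). Mthfd1l, which releases formate, had 373, 478 and 425 against 236.5, 437 and 279 (-0.44 ± 0.25). It overlapped through Notch1f/f tumour 2, without which the difference was -0.69, and it was -0.27 without Notch1f/f tumour 1.

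Aldh18a1, the entry enzyme of proline synthesis, had 641, 691 and 556 against 234, 451 and 316. Its groups did not overlap on any of its 5 probe sets, whose differences ran from -1.05 ± 0.30 to -0.63 ± 0.21 (-0.93 ± 0.25 for the brightest). Gpt2, the mitochondrial alanine transaminase, was dim, at 24.0, 47.3 and 39.8 against 6.4, 12.8 and 20.5 (-0.86 ± 0.27), and at -1.50 and -0.38 with a pseudocount of 1 and 64. Its groups did not overlap there. Cth, the last enzyme of cysteine synthesis from methionine, reached at most 16.6, had a difference of -0.34 and did not pass the filter.

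All 13 cytosolic tRNA synthetases among the members lay below 0 and 10 were lower without overlap, beside 55% and 10.4% of tested probe sets. They were proposed with the comparison known, so nothing is read from these counts. Their median log2 difference was -0.58 with a range from -1.05 to -0.27. Cars, the synthetase of cysteine, had 136.5, 223 and 221 in the Notch1+/+ and 76.9, 110.5 and 66.1 in the Notch1f/f tumours (-1.05 ± 0.28). Yars, that of tyrosine, had 193, 299 and 269 against 116, 133 and 127 (-0.91 ± 0.24), again with a clear gap and little spread among the Notch1f/f tumours. Mars, that of methionine, had 380.1, 569 and 604 against 219, 332 and 320.4, a difference of -0.79 ± 0.25, while its neighbour Ddit3 overlapped between groups.

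Tars, the synthetase of threonine, had 501, 887 and 895 against 451, 407 and 419 (-0.77 ± 0.25). Iars, that of isoleucine, had 571, 762 and 561 against 389, 504 and 251.5, a difference of -0.74 ± 0.27, of -0.48 without Notch1f/f tumour 3, and of -1.04 ± 0.27 on its other probe set. The gap lay between tumour 1 of each group in Tars, and between Notch1+/+ tumour 3 and Notch1f/f tumour 2 in Iars. Aars, that of alanine, had 418, 631.5 and 493.5 against 405, 311 and 292 (-0.58 ± 0.23), so that Notch1f/f tumour 1 lay just under Notch1+/+ tumour 1. Nars, that of asparagine, the amino acid made by Asns, had 811, 1288 and 1089 against 577, 702 and 763 (-0.62 ± 0.22). Its other probe set had 622, 1355 and 1018 against 379.5, 632 and 438, a larger difference (-0.99 ± 0.30) but with groups that overlapped. Sars, that of serine, had 528, 774 and 645 against 356, 461 and 459.5, a difference of -0.58 ± 0.21.

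Gars, which charges glycine in the cytosol and in mitochondria, had 918, 998 and 793 against 554.5, 721 and 696 (-0.45 ± 0.19). Eprs, the fused synthetase of glutamate and proline, had 618, 702 and 622 against 339, 546 and 592 (-0.42 ± 0.24), and -0.18 without Notch1f/f tumour 1. These were the last with groups that did not overlap. Lars, that of leucine, had 400.5, 575 and 308 against 242, 346 and 325 (-0.44 ± 0.27), Vars, that of valine, 588, 676 and 509 against 324.5, 416.5 and 616 (-0.41 ± 0.25), and Wars, that of tryptophan, 189, 167 and 250.3 against 144, 203 and 148 (-0.27 ± 0.25). In these 3 the groups overlapped. Leaving out Notch1+/+ tumour 2 brought the difference of Lars to -0.21, and leaving out Notch1f/f tumour 1 brought it to -0.29. That of Vars became -0.21 if Notch1f/f tumour 1, and -0.65 if Notch1f/f tumour 3, was left out. That of Wars became -0.11 if Notch1+/+ tumour 3, and -0.41 if Notch1f/f tumour 2, was left out. Wars is also known as an interferon-induced gene.

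The tumours within a group differed in a way that ran through the list. Notch1+/+ tumour 2 had the highest value of its group in 27 of 35 genes (77.1%), beside 30.1% of all tested probe sets. It led in 6 of 8 factors, 3 of 4 effectors, 8 of 10 enzymes and 10 of 13 synthetases. Notch1+/+ tumour 1 was the lowest of its group in 22 genes (62.9%, beside 36.1% of probe sets). Within the Notch1f/f group, tumour 2 was the highest in 18 genes (51.4%, beside 36.4%) and tumour 1 the lowest in 18 (51.4%, beside 29.9%). This order was not uniform, since Notch1f/f tumour 1 was the highest of its group in 7 genes (20%, beside 32%), Asns among them. Averaged over the 35 genes, log2(intensity + 16) was 7.71, 8.29 and 7.92 in the Notch1+/+ and 7.19, 7.48 and 7.34 in the Notch1f/f tumours, so each Notch1f/f mean lay below each Notch1+/+ mean. Genes on 1 array share the RNA and the hybridisation, so these counts describe 6 tumours.

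**Figure D3:**
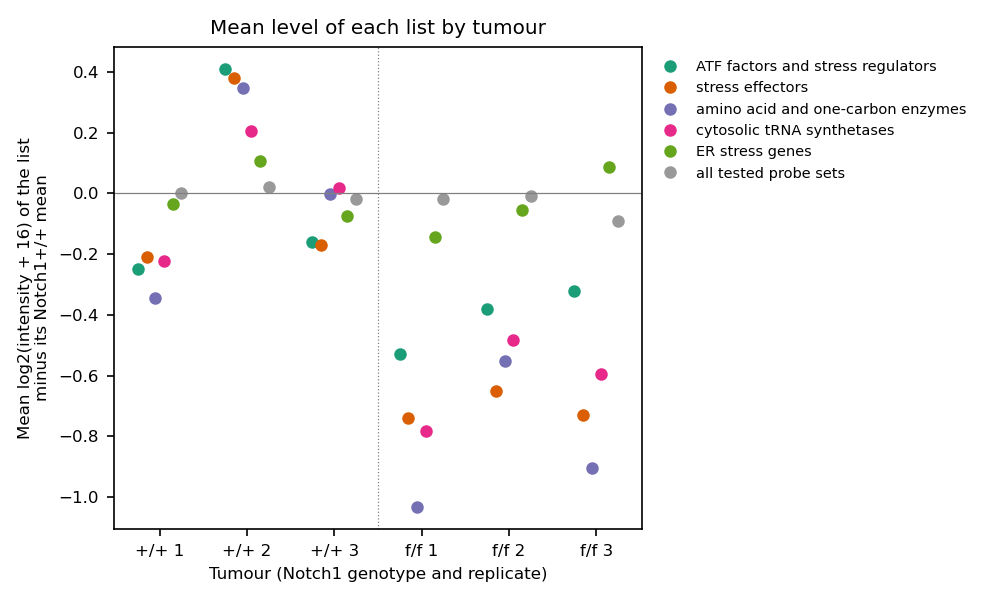
Points give, for each tumour, the mean log2(intensity + 16) of a list minus its mean over the 3 Notch1+/+ tumours. The 4 member groups peak in Notch1+/+ tumour 2 and lie below 0 in all Notch1f/f tumours, while the ER stress genes and all tested probe sets stay near 0.

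Probe sets of a gene mostly pointed the same way. Of the 78 probe sets, 67 passed the filter on low values (mean log2 of at least 4.56, an intensity of about 7.6), and 63 of these had a difference below 0. Of the 23 genes with several probe sets, 18 had all tested ones of 1 sign, 3 (Ddit3, Cebpg and Shmt2) had both signs, and 2 (Nupr1 and Vldlr) had none tested. A total of 32 of the 35 genes passed the filter. In 6 of the 18 genes without overlap (Cebpg, Eif4ebp1, Gpt2, Eprs, Nars and Sars) another tested probe set had groups that overlapped, and in 2 others (Trib3 and Phgdh) it was the other way round. In 10 of the 35 the probe set used is of the x_at or s_at type, which can detect transcripts of more than 1 gene.

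None of the other genes of the same pathways passed an adjusted p of 0.05 in limma over all probe sets (0 of 86 tested), as 0.0185% of probe sets did in either direction and 0.0111% with a lower value. Of these 86, 17 were lower and 5 higher at an unadjusted limma p under 0.05, beside 7.6% and 5.94% of probe sets. The lists were chosen with earlier results of these data known, so nothing is read from these counts. The remaining cytosolic synthetases and their scaffold proteins had a median log2 difference of -0.31. Of these 9, 8 lay below 0 and 3 (Farsb, Rars and Eef1e1) were lower without overlap, beside 55% and 10.4% of tested probe sets. Eef1e1, a scaffold protein of the multisynthetase complex, had 707 ± 157 in the Notch1+/+ and 333 ± 191 in the Notch1f/f tumours (limma adjusted p = 0.290). Farsb, a subunit of the synthetase of phenylalanine, had 715 ± 31.3 against 425 ± 107 (adjusted p = 0.281), and the scaffold gene Aimp2 had 430 ± 87.1 against 228 ± 102 (adjusted p = 0.295). Qars, that of glutamine, was the 1 gene above 0, at 0.30 ± 0.22. The 16 mitochondrial synthetases had a median of -0.22, with 14 below 0 and 3 lower without overlap, beside the same 55% and 10.4%. Those were Nars2, at 136 ± 25.7 against 65.8 ± 9.43 (-0.89 ± 0.24, limma adjusted p = 0.258, and -0.51 as the mean of its probe sets), Rars2 (-0.68 ± 0.26) and Tars2 (-0.47 ± 0.20). Of the cytosolic synthetases among the members, 10 of 13 had no overlap. These were proposed with the comparison known, so nothing is read from the difference between the lists, which was not tested.

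Beside 55% of tested probe sets below 0, 13 of 17 further ATF4 targets, among them amino acid transporters, lay below 0 (median -0.60). Those with the smallest p were Vegfa, an angiogenic factor (-1.50 ± 0.22, limma adjusted p = 0.0955), Slc7a1, the carrier of arginine and lysine (-1.72 ± 0.27, 0.0981), and Slc6a9, the glycine carrier, at 58.6 ± 24.5 against 18.1 ± 1.82 (-1.08 ± 0.27, 0.234). Vegfa and Slc6a9 were dim, and with a pseudocount of 64 their differences were -0.64 and -0.56. That of Vegfa was -2.91 with a pseudocount of 1 and -0.87 as the mean of its probe sets. The widest difference in the other direction was that of Bbc3, a pro-apoptotic gene also induced by p53 (1.55 ± 0.57, limma adjusted p = 0.312).

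Upstream of ATF4, the eIF2 kinases, eIF2 and its exchange factor eIF2B had a median of -0.19, with 9 of 14 below 0, beside 55% of tested probe sets. Eif2b3 (-0.87 ± 0.31, limma adjusted p = 0.300) and Eif2b1 (-0.50 ± 0.22, 0.365), subunits of eIF2B, were below 0. Impact, an inhibitor of GCN2, was on the higher side at 159 ± 22.2 against 99.9 ± 7.41 (0.59 ± 0.22, limma adjusted p = 0.318), without overlap, but at -0.02 as the mean of its probe sets. The 16 genes of the unfolded protein response of the endoplasmic reticulum had a median of -0.12. Of these genes, 10 lay below 0, 2 were lower and 1 (Edem1) higher without overlap, beside 55%, 10.4% and 8.13% of tested probe sets. Xbp1, a transcription factor of that response, had 692 ± 160 against 457 ± 53.0 (0.56 ± 0.22, limma adjusted p = 0.339). Atf6, another such factor, had a difference of -0.62 ± 0.27 (limma adjusted p = 0.369, with -0.32 as the mean of its probe sets and -0.38 with a pseudocount of 64) and Creld2, a chaperone of the endoplasmic reticulum, -0.44 ± 0.22 (0.414).

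The remaining enzymes of amino acid and one-carbon metabolism had a median of -0.19, with 11 of 16 below 0, beside 55% of tested probe sets. Bcat1, a cytosolic transaminase of branched-chain amino acids, had 129 ± 24.4 against 58.4 ± 1.70 (-0.95 ± 0.24, limma adjusted p = 0.234), and Tyms, which makes thymidylate from a one-carbon unit, -0.99 ± 0.23 (0.211, and -0.41 as the mean of its probe sets). Prodh, which breaks proline down, was on the opposite side from the proline-making Aldh18a1. It had 44.2, 24.0 and 154 against 407, 215 and 133.5, a difference of 1.72 ± 0.54 that did not pass (limma adjusted p = 0.291), and its groups overlapped through Notch1+/+ tumour 3.

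**Figure D4:**
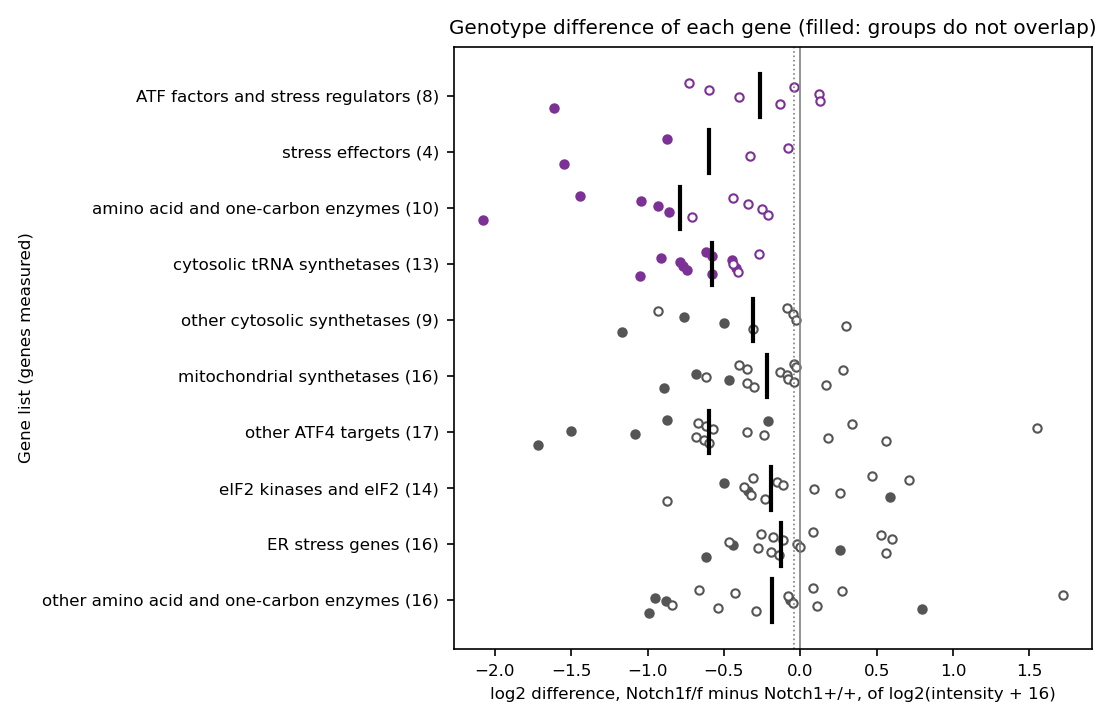
Each point is a gene, by its log2 difference (Notch1f/f minus Notch1+/+), in the 4 member groups (purple) and 6 lists of other pathway genes (grey); filled points have groups without overlap, black bars are medians, and the dotted line is the median of all tested probe sets. The medians of the member groups run from -0.78 to -0.27, and those of the other lists from -0.60 to -0.12.

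Marker genes of other cell types also differed between the tumours. The summed intensity of 9 macrophage markers was 263 to 905 in the Notch1+/+ and 1447 to 2832 in the Notch1f/f tumours. Of these 9, 7 had a log2 difference above 0, and 2 (Adgre1 and Itgam) lay below 0 with groups that overlapped. The summed intensity of 7 B cell markers, of 8 listed, was 91.6 to 95.3 and 141 to 334. The 7 fibroblast markers summed to 1401 to 2552 and 868 to 1951, most of it from Pdgfrb. Without Pdgfrb, left out after its values were seen, the other 6 summed to 229, 1270 and 297 in Notch1+/+ tumours 1, 2 and 3. In the Notch1f/f tumours they summed to 55.3, 105 and 124. The sum was highest in Notch1+/+ tumour 2, which also led most of the ATF4 response genes. Col1a2 alone gave 190 and 978 of it in Notch1+/+ tumours 1 and 2. Taken singly, 0 of the 7 fibroblast markers had groups without overlap. The 7 neutrophil markers summed to 208 to 351 and 127 to 210. Among 6 endothelial markers 5, among 7 thymic epithelial markers 5, and among 5 dendritic markers 4 stayed below 20 on all arrays. The 3 measured erythroid markers summed to at most 66.9. The part of these cells in the differences of the ATF4 response genes was not tested.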

How the data were processed

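RNA of 6 tumours was hybridised to Affymetrix arrays after biotin labelling, per the labels' protocols. The deposited values are linear intensities, 1 for each probe set. The submitters' processing notes name MAS5, with no version; every array had been scaled to the same trimmed mean. Detection calls were not used. Gene symbols came from the annotation table of the array (34945 probe sets with 1 symbol), and promoters from RefSeq (GRCm38.p6).

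For each intensity, log2(intensity + 16) was taken. The 64 controls and the 40% of probe sets with the lowest mean log2 value were left out of the test, which left 27022 of 45101. The fit of the 2 groups used limma 3.58.1 (R 4.3.3), with an intensity trend in its eBayes step and two-sided p-values, with Benjamini-Hochberg adjustment over all tested probe sets and no covariate. The labels name a mouse for each tumour and no batch. The fit was tested on simulated data. Each ± of a log2 difference is limma's moderated SE, and each ± of an intensity the SD of 3 tumours. The members, lists and motifs were chosen with earlier results of these data known. Every measured member is named, and of each list of other pathway genes the 3 with the smallest p; Qars, Bbc3, Rars, Edem1 and those of the closing section were named after their values were seen. Alternatives were a pseudocount of 1 or 64, no trend in eBayes, averaging all probe sets of each gene, median centring or quantile normalisation, a filter at the 60th percentile or none, and leaving out each tumour. The number of arrays limits the precision. The site of 1 gene with a motif match is not reported here. Figures were drawn with matplotlib 3.10.9.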

Additional observations from a re-analysis of the deposited data

How the results depend on the processing

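Of the 33 members with a log2 difference below 0, 30 stayed below 0 under each of the 14 alternatives run; Ddit3, Cebpb and Vldlr did not, and Nupr1, above 0, also changed sign. The median of the 35 members ran from -0.72 to -0.38 with 1 tumour left out, was -0.39 with a pseudocount of 64, and was -0.54 with median centring and -0.59 with quantile normalisation. The count of members lower without overlap ran from 18 to 23 with a tumour left out, where fewer values make an overlap less likely. It was 16 with median centring. The share of all tested probe sets lower without overlap moved as well. This share was 10.4% in the main setting, ran from 14% to 21.5% with a tumour left out, and was 8.87% with median centring. Without Notch1+/+ tumour 1, where the count of members was 23, the share was 18.9%. The count of members past an adjusted p of 0.05 in limma was 0, and ran from 0 to 1 with a tumour left out (1, Cebpg, without Notch1f/f tumour 2); nothing is read from these, since the members were chosen with this comparison known. The count over all probe sets was 5, was 3 with no filter and 11 with median centring, and ran from 2 to 14 with a tumour left out; the cause was not tested. No gene of the other pathway lists passed under any of these alternatives. Impact had -0.02 in place of 0.59 as the mean of its probe sets. No paired analysis was possible because the labels give no replicate numbers that link tumours. Values near the filter are close to background, and folds of such genes depend on the pseudocount.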

Other observations

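A few stress-induced genes outside the 36 had their highest value in Notch1f/f tumour 3. Slc7a11, the cystine carrier of the ATF4 response, had an intensity of 87.0 there, while no other tumour exceeded 14.4. Ppp1r15a, which reverses eIF2 phosphorylation, had 354.5 there and at most 89.3 elsewhere, and Herpud1, of the endoplasmic reticulum stress response, 613 there and at most 394 elsewhere. Asns, in contrast, had its lowest value of all tumours, 28.8, in the same tumour. These genes were picked after their values were seen, from 1 tumour, and no test was made.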
